A study of Mus musculus with 7 samples.

Results

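Cassette exons of 4 mouse genes that act at DNA breaks and stalled replication forks, Rif1, Bod1l, Usp3 and Rnf138, were followed in epithelial tissue from the cervical loop of the incisor, where progenitors replace the tooth as it wears. Every row listed under these 4 gene names in the deposited table was taken, which gave 4 of its 278 splicing events and 4 of its 228 gene names, with 1 cassette exon in each gene. The mice behind all 7 RNA-seq libraries were 8 to 10 weeks old and of the genotype K14CreER;Srsf1fl/fl. Tamoxifen had been given for the 4 mutant libraries (replicates 3, 4, 5 and 9) and not for the 3 control libraries (replicates 1, 2 and 7). In this genotype the keratin 14 promoter drives a Cre recombinase that tamoxifen activates, so that floxed Srsf1 is deleted in cells with keratin 14 promoter activity. The labels do not state what share of the cells recombined, and no group received tamoxifen without the floxed alleles, so tamoxifen and the deletion cannot be told apart. SRSF1 is an SR protein that binds exons and promotes their splicing.

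When both strands of DNA break, cells either join the ends directly or cut them back to single strands for repair by homologous recombination. RIF1 works with 53BP1 to hold back this cutting, brings protein phosphatase PP1 to chromatin to set the timing of replication, and shields stalled forks. BOD1L protects stalled forks from degradation. Ubiquitin placed on histone H2A around a break recruits 53BP1, and USP3 is an enzyme that takes this ubiquitin off. RNF138 is a RING-type ubiquitin ligase that is recruited to breaks, where it acts on Ku and CtIP and favours the cutting of the ends. Epithelial progenitors of the cervical loop divide throughout life to renew the incisor.

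The alternative exons of Rif1, Bod1l and Usp3 are shown because their inclusion is the quantity measured, each on its transcript strand from 5′ to 3′ as in the GENCODE M21 transcripts (GRCm38). Capitals mark each GGA triplet, the core of the purine-rich sequences that SRSF1 is known to bind. The Rif1 exon lies on the plus strand at chr2:52116668-52116745, the Bod1l exon on the minus strand at chr5:41791797-41791937, and the Usp3 exon on the minus strand at chr9:66542513-66542626.
Rif1: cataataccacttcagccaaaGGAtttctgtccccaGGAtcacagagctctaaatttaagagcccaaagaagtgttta
Bod1l: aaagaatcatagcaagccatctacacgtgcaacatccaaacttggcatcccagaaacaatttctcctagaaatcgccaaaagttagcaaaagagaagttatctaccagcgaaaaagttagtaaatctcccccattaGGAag
Usp3: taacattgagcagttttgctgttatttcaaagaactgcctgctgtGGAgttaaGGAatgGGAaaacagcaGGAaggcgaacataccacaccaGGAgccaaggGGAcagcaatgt

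The 4 exons had some features in common. All 4 were coding, and their lengths of 78 nucleotides in Rif1, 141 in Bod1l, 114 in Usp3 and 108 in Rnf138 were divisible by 3. Among the other 169 distinct cassette exons of the table, coding or not, 58% had such a length, and the median length was 117 nucleotides. Shared divisibility in 4 exons is therefore a description only. No exon of the 4 held a stop codon in its reading frame, so both forms of each mRNA read through to the same end of the protein. All 3 junctions of each event, both inclusion junctions and the skipping junction, coincided with introns of the annotation. The authors' deposited table classes all 4 events as using known junctions, which it does for 80 of its 173 cassette events.

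GGA triplets were searched on the transcript strand, together with the longer purine sequences GGAGA, which contains GGA, and GAAGAA. The Usp3 exon held 6 GGA triplets (5.26 per 100 nucleotides), and 6.0% of 1541 internal exons of the same length in protein-coding transcripts held as many or more. The Rif1 exon held 2 (2.56 per 100 nucleotides), equal to the median of 2 in exons of its length. The Rnf138 exon also held 2 (1.85 per 100 nucleotides), again equal to the median for its length, and both lay within a GGAGA, a sequence present in 26.5% of exons of that length. The Bod1l exon held 1 (0.71 per 100 nucleotides), against a median of 3 for its length. GAAGAA occurred in none of the 4 exons and in 10.1% of the other listed cassette exons. The median density of GGA in those other exons was 3.2 per 100 nucleotides, so that of the 4 only the Usp3 exon was denser. GC content was 41.0% in the Rif1 exon, 39.7% in Bod1l, 46.5% in Usp3 and 37.0% in Rnf138, each below the median of 50% of the other listed cassette exons.

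PSI, the percent spliced in, gives the part of the reads over an exon and its skipping junction that include the exon, in percent. How many reads stand behind a value is unknown, which leaves PSI without a counting interval. Separate animals for the libraries are not stated in the labels, so SDs and SEs measure only the spread between these samples, which may be technical. The 1 event listed for the targeted gene, Srsf1, is classed as an alternative last exon. Its PSI was 5.83% to 10.07% in the controls and 44.74% to 85.52% in the mutants, with all 4 mutants above all 3 controls. The table holds no RNA levels, so the tissue could not be checked against its markers. None of 10 dental epithelial, 6 dental mesenchymal or 5 blood and endothelial marker genes had a listed event. Such an event would have shown a splicing difference and not expression of the marker. In bulk tissue, a change of splicing within cells and a change in the mix of cells that splice differently cannot be told apart. The listed events all have a corrected DRIMSeq p below 0.1 for mutant against control in the authors' deposited table, and the 4 genes were picked from it with these values known. Differences between the groups are therefore given as descriptions, and counts of events past the limma threshold are given only beside the share of all listed events. The corrected DRIMSeq p was 3.73e-06 for Usp3, 0.0069 for Rif1, 0.00931 for Bod1l and 0.0559 for Rnf138, the member nearest to the limit. The largest value in that table was 0.0979, and events past the limit are not in it. The corrected JuncBASE p in the authors' deposited table was 0.225 for Bod1l, 0.292 for Usp3 and Rnf138 and 0.343 for Rif1, from a test that the labels do not describe.

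Inclusion was lower in the mutants for Rif1 and Usp3 and higher for Bod1l and Rnf138. The 4 differences of means lay between 19.7 and 28.2 percentage points in size. Control and mutant libraries did not overlap in any of the 4 events, as in 95.7% of all listed events. With limma, a linear model with the spread moderated over all 278 events, 4 of 4 passed an adjusted p of 0.05, and so did 95.7% of the listed events, 78.8% with lower and 16.9% with higher inclusion. Nothing is read from these shares, because the listing used the same contrast.

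**Figure D1:**
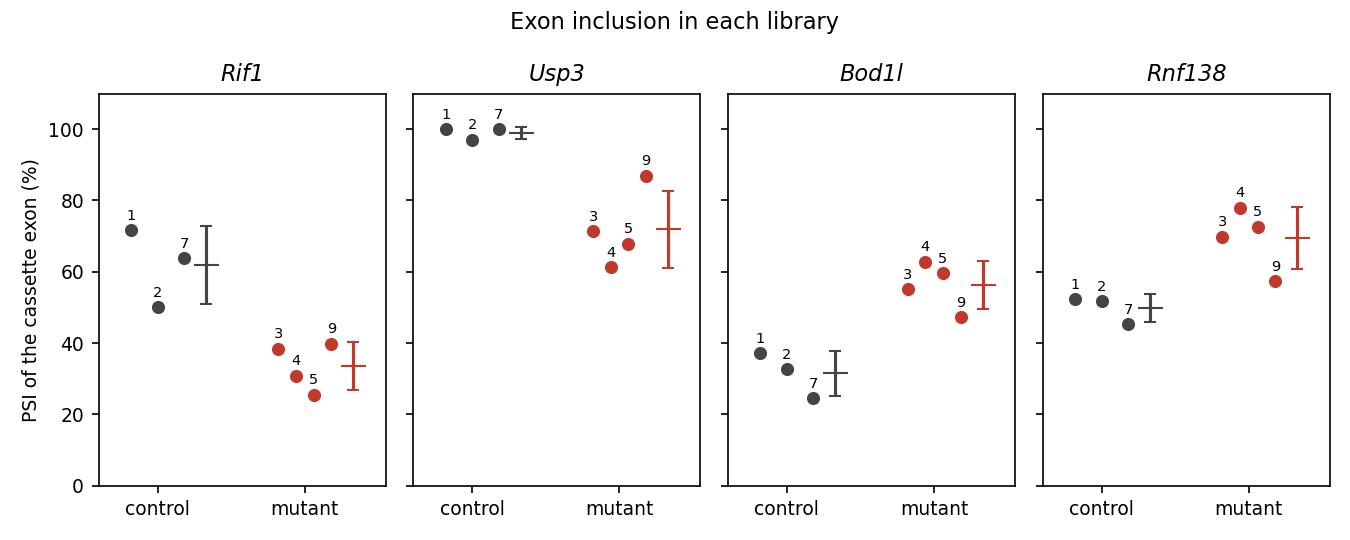
PSI in percent (vertical axis) of the cassette exon of each gene in the 3 control (grey) and 4 mutant (red) libraries; points are libraries with their replicate number, and the bar beside them is the mean ± SD. The mutant points lie below all controls in Rif1 and Usp3 and above all controls in Bod1l and Rnf138, and mutant 9 is the mutant point nearest to the controls in each panel.

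Rif1 (ENSMUSG00000036202.16) lost inclusion of exon 32 of 36, counted in the transcript Rif1-201. Its PSI was 71.7%, 50.0% and 63.83% in controls 1, 2 and 7, and in mutants 3, 4, 5 and 9 it was 38.46%, 30.88%, 25.53% and 39.81%. Control 2 was the lowest control, and it still lay 10.19 points above the highest mutant, mutant 9. The mean was 61.8% ± 11.0 (SD, n = 3) in the controls and 33.7% ± 6.70 (SD, n = 4) in the mutants, a difference of −28.17 points (SE 5.48, limma). The form without the exon thus made up 38.2% of the event on average in the controls and 66.3% in the mutants, so by the group means the more abundant form changed from inclusion to skipping, although control 2 had both forms at 50.0%. Of the 4 exons, this one had the largest spread among the controls, with an SD of 10.99 points.

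The Rif1 exon encodes 26 whole codons, residues 2205 to 2230 of 2426, in the carboxyl-terminal part of the protein. Long and short forms of RIF1 that differ by an exon in this part are known. The exon lies downstream of both PP1 docking sequences of RIF1, which were found by their letters at residues 2136 to 2139 (the type serine-isoleucine-leucine-lysine) and 2158 to 2161 (the type that ends in phenylalanine). It starts 43 residues after the second of these and overlaps neither, so the exon's skipping leaves both in the protein. The introns beside it are short, with 273 nucleotides upstream and 89 downstream. The introns beside the other 3 exons ran from 1319 to 3409 nucleotides. The skipping form is annotated in 1 transcript, Rif1-207, whose start is incomplete.

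Usp3 (ENSMUSG00000032376.12) went from almost complete inclusion of exon 7 of 15 (transcript Usp3-205) to a mixture of forms. Controls 1, 2 and 7 had a PSI of 100%, 97.09% and 100%, and mutants 3, 4, 5 and 9 had 71.43%, 61.33%, 67.83% and 86.92%. Mutant 9 lay 10.17 points below the lowest control, and the other 3 mutants lay lower still. The mean was 99.03% ± 1.68 (SD, n = 3) in the controls and 71.9% ± 10.9 (SD, n = 4) in the mutants, a difference of −27.15 points (SE 5.37, limma). Skipping was at 0.97% of the event on average in the controls and 28.1% in the mutants, but the included form remained the larger one in every mutant library.

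The Usp3 exon encodes residues 178 to 216 of 520, within the catalytic domain of this deubiquitinase. The conserved box that holds the catalytic cysteine was found at residues 163 to 169, so 8 residues separate it from the part that the exon encodes. Codons at both ends of the exon are split across junctions, with 2 bases before the exon. The skipped form has 482 residues, 38 fewer, and 1 residue at the join is altered. Transcript Usp3-202 of the annotation encodes this shorter protein, in which the cysteine box is kept.

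Bod1l (ENSMUSG00000061755.10) gained inclusion of exon 26 of 27 (transcript Bod1l-201). Controls 1, 2 and 7 had a PSI of 37.1%, 32.73% and 24.56%, and mutants 3, 4, 5 and 9 had 55.1%, 62.86%, 59.57% and 47.27%. Mutant 9 was the lowest mutant and exceeded the highest control by 10.17 points. The mean was 31.5% ± 6.37 (SD, n = 3) in the controls and 56.2% ± 6.75 (SD, n = 4) in the mutants, a difference of 24.74 points (SE 4.29, limma). The skipped form was the larger one in all 3 controls, at 68.5% on average, and the included form was the larger one in mutants 3, 4 and 5.

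The Bod1l exon adds 47 residues near the carboxyl end of a protein of 3032 residues, and only 38 residues follow the exon. An AT-hook core, the sequence arginine-glycine-arginine-proline that contacts DNA in the minor groove in many proteins, was found at residues 2810 to 2813, upstream of the exon and present in both forms. Transcript Bod1l-204 of the annotation lacks the exon and encodes the protein of 2985 residues.

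Rnf138 (ENSMUSG00000024317.15) gained inclusion of exon 7 of 8 (transcript Rnf138-203; chromosome 18, 21024409 to 21024516, plus strand). Controls 1, 2 and 7 had a PSI of 52.24%, 51.79% and 45.24%, and mutants 3, 4, 5 and 9 had 69.86%, 78.0%, 72.63% and 57.33%. Mutant 9 was 5.09 points above the highest control, the smallest gap between groups of the 4 genes, while the other 3 mutants lay near 70% or higher. The mean was 49.8% ± 3.92 (SD, n = 3) in the controls and 69.5% ± 8.76 (SD, n = 4) in the mutants, a difference of 19.7 points (SE 4.64, limma). Both forms were about equally frequent in the controls, and the included form was the larger one in every mutant.

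The Rnf138 exon encodes 36 whole codons, residues 188 to 223 of 245. A RING pattern, the zinc-binding fold that gives the ligase its activity, was found at residues 18 to 57, and a zinc finger of the C2H2 type at residues 159 to 180. Both lie upstream of the exon, the zinc finger 7 residues before it, and 22 residues follow the exon up to the carboxyl end. Transcripts Rnf138-201 and Rnf138-202 of the annotation lack the exon and encode the protein of 209 residues, which keeps the RING pattern and this zinc finger. Only these patterns were searched for, by their letters. Whether the exon's own residues belong to another domain, such as a further zinc finger, was not determined.

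**Figure D2:**
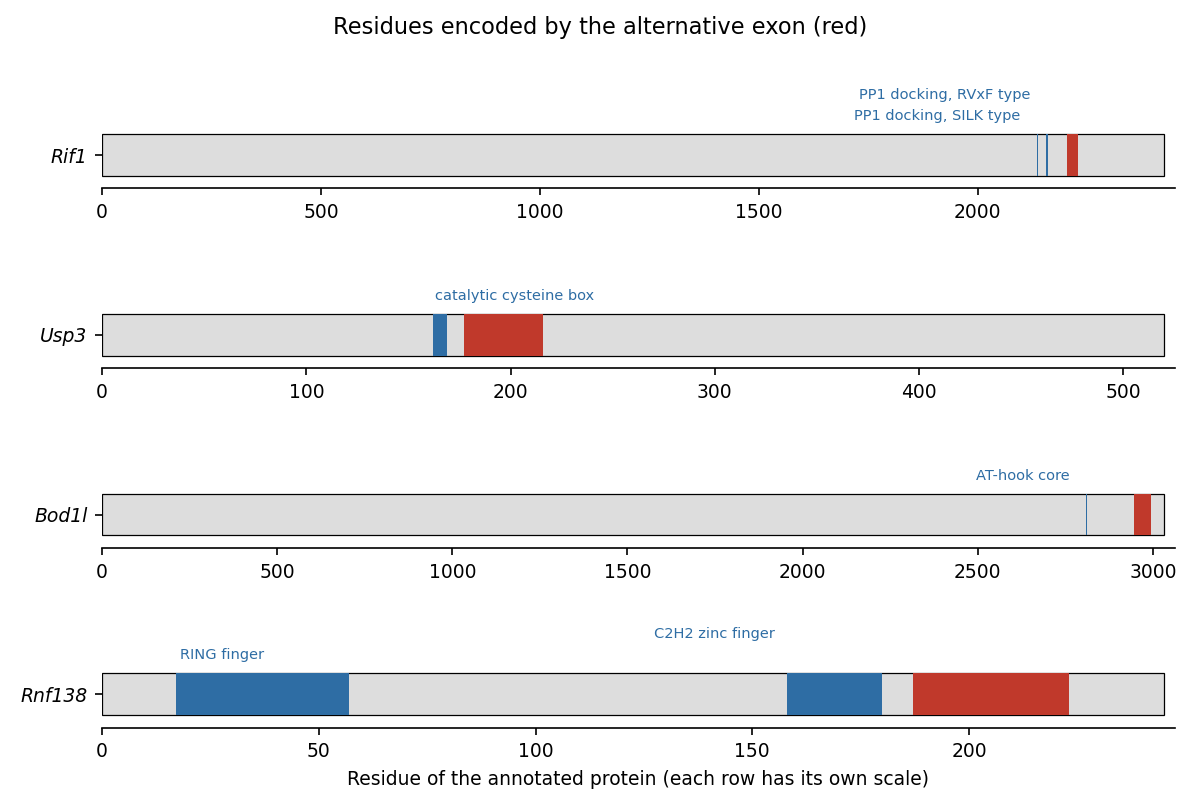
Position of the residues encoded by the alternative exon (red) along each annotated protein (grey; horizontal axis in residues, with a separate scale for each protein), with sequence patterns found by search in blue. The exons of Rif1, Bod1l and Rnf138 lie near the carboxyl end, whereas the Usp3 exon, at residues 178 to 216 of 520, follows the catalytic cysteine box.

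The levels of the 4 exons were ordered differently in the controls and in the mutants. In the controls, Bod1l had the lowest mean PSI, followed by Rnf138, Rif1 and Usp3, and the values of Rnf138 and Rif1 overlapped while the other neighbours did not. In the mutants, Rif1 was lowest, followed by Bod1l, Rnf138 and Usp3. The mutant values of Bod1l overlapped those of Rnf138, and those of Rnf138 overlapped those of Usp3, so only Rif1 stood apart from its neighbour. The exons thus lay between 31.5% and 99.03% in the controls and between 33.7% and 71.9% in the mutants.

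Among all listed events the 4 exons were on the side of large differences. The median size of the difference of means was 25.94 points over the 4 exons and 12.94 points over the other cassette events, a description that partly follows from how the genes were picked. Of the 26 cassette events with higher inclusion in the mutants, Bod1l had the largest difference and Rnf138 ranked 7th. Of the 147 with lower inclusion, Rif1 ranked 7th and Usp3 9th. Control inclusion was lower than is typical in 3 of the 4 genes, since the other cassette events had a median control PSI of 89.84%. Usp3 was one of 65 cassette events with a control mean of at least 95%.

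**Figure D3:**
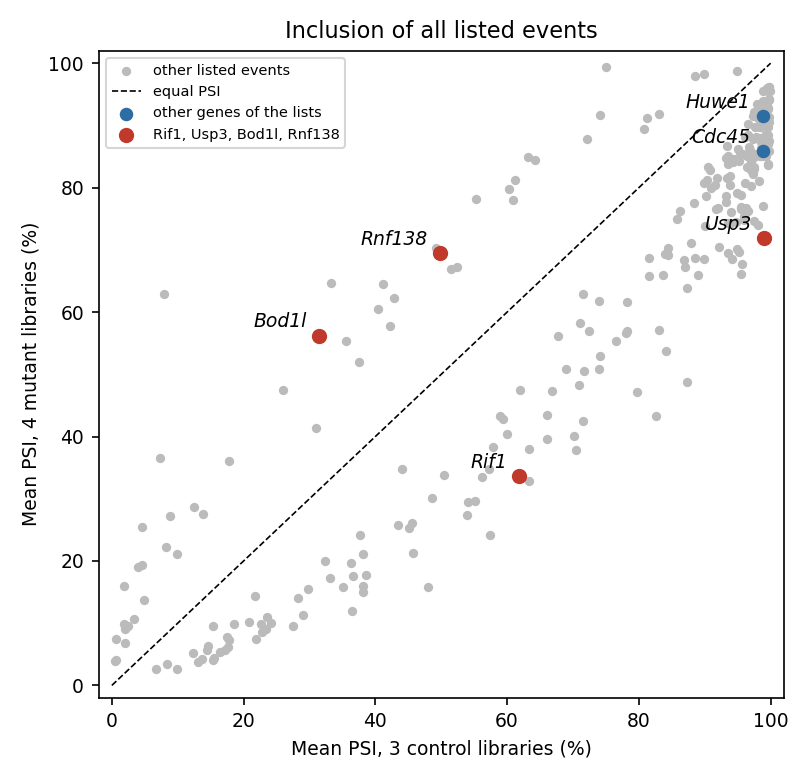
Mean PSI in the 3 control libraries (horizontal axis, percent) against the 4 mutant libraries (vertical axis, percent) for the 278 listed events; the dashed line marks equal PSI. Bod1l and Rnf138 (red) lie above the line, among the 50 events with higher inclusion in the mutants, and Rif1 and Usp3 (red) lie below it with Cdc45 and Huwe1 (blue), among the 228 with lower inclusion.

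Mutant libraries differed in how far they moved. Mutant 9 was nearest to the control mean in 4 of the 4 exons. In the other 274 events it was nearest in 132, or 48.2%, against 29.9% for mutant 3, 13.5% for mutant 5 and 8.4% for mutant 4. For Usp3, the shift from the control mean was −12.11 points in mutant 9 and −37.7 points in mutant 4, and for Rnf138 the shifts upwards were 7.57 points in mutant 9 and 28.24 in mutant 4. Mutant 4 had the largest shift in Bod1l, Usp3 and Rnf138, and mutant 5 in Rif1. The Srsf1 event followed another order, because its PSI was lowest in mutant 4 (44.74%), next in mutant 9 (55.83%) and highest in mutant 5 (85.52%). Without mutant 9, the differences of means were −30.22 points in Rif1, −32.17 in Usp3, 27.71 in Bod1l and 23.74 in Rnf138.

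**Figure D4:**
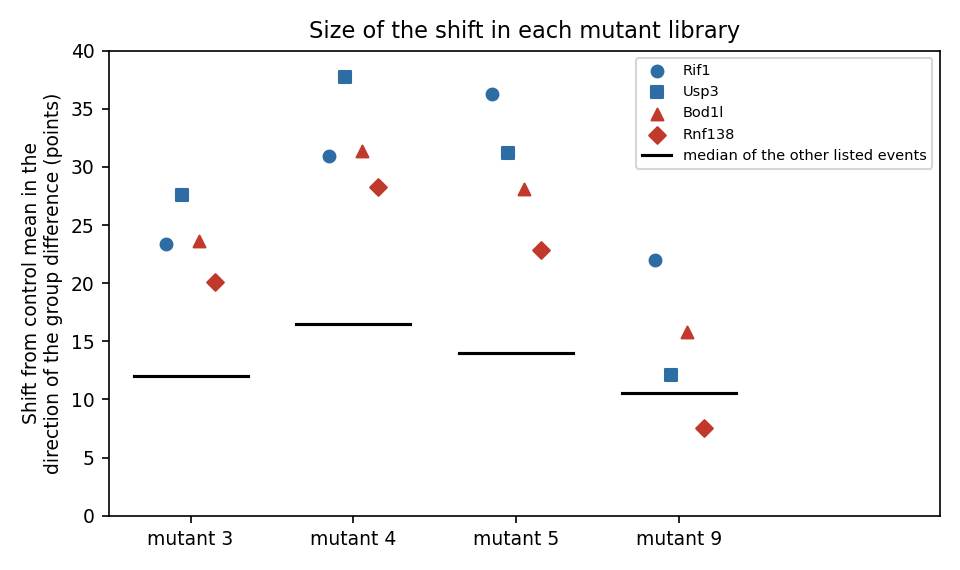
Shift of each mutant library from the control mean, in percentage points in the direction of the group difference (vertical axis), for Rif1 and Usp3 (blue, inclusion lower) and Bod1l and Rnf138 (red, inclusion higher); black lines are medians over the other 274 events. Shifts are smallest in mutant 9, where Rnf138 (7.57 points) lies below the line of 10.53 points.

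Genes of the same pathways were looked for in the table, which holds 228 gene names in all. Of 52 genes in a list of break repair factors, Rif1 alone had a listed event. Of 67 replication fork and checkpoint genes, Bod1l and Cdc45 had one. Of 47 ubiquitin enzymes of the damage response, Usp3, Rnf138 and Huwe1 did. Of the 6 events, 4 passed limma with lower inclusion and 2 with higher inclusion, where 78.8% and 16.9% of all listed events did, and nothing is read from this count. Genes without a listed event cannot be called unchanged.

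Cdc45 encodes a part of the replicative helicase, and inclusion of its exon 5 of 20 was 98.8% ± 2.03 (SD, n = 3) in the controls and 85.9% ± 3.32 (SD, n = 4) in the mutants (difference −12.94 points, SE 2.35, limma). Huwe1 encodes a large HECT-type ubiquitin ligase, and inclusion of its exon 52 of 83 was 98.8% ± 0.51 (SD, n = 3) and 91.5% ± 4.68 (SD, n = 4), a difference of −7.29 points (SE 2.71, limma). The groups did not overlap in either gene, as in 95.7% of all listed events. Both exons are coding with lengths divisible by 3, namely 138 nucleotides in Cdc45 (residues 69 to 114 of 566) and 99 in Huwe1 (residues 2370 to 2403 of 4378). The skipping junction of Huwe1 was not in the annotation used here, whereas that of Cdc45 was. Like Usp3, both had almost complete inclusion in the controls, and their differences were smaller than that of Usp3.

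The events of other genes with the most similar PSI were sought by the root mean square difference over the 7 libraries, a measure of likeness in level and in change. Both events closest to Rif1 were cassette events of Fopnl, at 5.79 and 7.02 points. Closest to Usp3 were cassette exons of Zmym3 (3.62 points) and Pla2r1 (4.12 points), and in Zmym3 inclusion went from 97.5% ± 2.57 (SD, n = 3) to 74.7% ± 8.85 (SD, n = 4). Among the events closest to Bod1l was a first exon of Sdccag3 (5.41 points), which went from 35.5% ± 2.61 (SD, n = 3) to 55.4% ± 5.07 (SD, n = 4). Among those closest to Rnf138 was a cassette exon of Pitpnb (4.69 points), which went from 52.4% ± 6.54 (SD, n = 3) to 67.3% ± 3.25 (SD, n = 4). No event of the 4 genes was among the 2 closest to another of them.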

How the data were processed

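RNA-seq of 7 libraries of total RNA was made with the Illumina TruSeq protocol, per the labels' protocols. The tools were TopHat, Bowtie, DESeq and SAMtools and the build was mm9, per the submitters' processing notes, and the series text names JuncBASE for the splicing events. The authors deposited 1 table with PSI as a percent in each library, the percent median of each group and, as a score in points, the difference of the medians. The authors' deposited p-values are a raw and a corrected one from JuncBASE and from DRIMSeq. The series text gives a total of 648000000 reads. Read counts per event were not used here, so the depth at each event and its counting precision are unknown. Of 863 distinct junctions, 650 (75.3%) coincide with introns of GENCODE M21, an annotation of GRCm38. Coordinates were therefore read as GRCm38, although the submitters' notes name mm9. After a shift of the coordinates by 1000 bases 0 coincide, which speaks only to accidental matches and not to mm9. Introns on mm9 were not compared.

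Groups and replicate numbers come from the sample titles. The series text speaks of 4 conditions, whereas the titles give only control and mutant, and this difference was not resolved. Differences of means and SEs are from limma 3.58.1 (R 4.3.3) on PSI over the 278 events, with Benjamini-Hochberg adjustment. The code of this step was run on simulated data with normal noise of a common spread. Unlike the listed events, these data had no limits of PSI and no selection, so the run says nothing about the listed events. Exon positions, frames and residues were computed from the M21 transcripts with Python 3.11.15, pandas 2.3.3 and Biopython 1.88. Named genes were the 4 chosen ones, Srsf1, genes of 3 pathway lists with a listed event, and the 2 most similar events for each of the 4. Some of these similar events are not reported here. The genes and lists were chosen with earlier results of these data known. Protein sequences are not shown. Alternatives were group medians, the logit scale, a spread trend, 1 event per overlap and leaving out each library.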

Additional observations from a re-analysis of the deposited data

How the results depend on the processing

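The difference of means kept its direction under all 9 alternatives in each of the 4 genes. This was fixed beforehand, because control and mutant values do not overlap in these events. The difference also moved by less than the gene's own SD within groups, pooled over control and mutant libraries. Leaving out 1 library cannot move it further than that in groups of this size, so nothing is read from this limit. Some of these moves exceeded the smaller SD of the controls alone, which was 1.68 points in Usp3 and 3.92 in Rnf138. With 1 library left out at a time, the difference of means ranged from −34.09 to −23.24 points in Rif1 and −32.17 to −23.64 in Usp3. It ranged from 21.29 to 27.71 points in Bod1l and 16.85 to 23.74 in Rnf138. As differences of medians the values were −29.16, −30.37, 24.61 and 19.46 points in that order. The number of listed events past the limma threshold was 266 of 278, and from 239 to 266 with a library left out. It was 275 on the logit scale, 278 with a spread trend and 226 of 234 with 1 event per group of overlapping events. No paired analysis was possible because the groups share no replicate number. Because the number of reads per event is unknown, the precision of a single PSI value, such as the 100% in Usp3 controls, is not known.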
